A study of Sus scrofa with 4 samples.

Results

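Laminins, nidogens, perlecan and nephronectin are secreted glycoproteins of basement membranes and of the matrix close to the cell surface. A list of 10 such genes was looked up by symbol in the gene counts of 4 RNA-seq libraries of porcine fetal fibroblasts, and 9 of the 10 were found among the 35670 genes listed: LAMA3, LAMA4, LAMB1, LAMB2, LAMC1, NID1, NID2, NPNT and HSPG2. The symbol LAMA2 matched no row, so that laminin chain is not analysed here. The list was chosen by what these proteins are, with the fold changes between the groups of these same 4 libraries already known, so the members' values are given as a description and support no test.

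The cells are skin fibroblasts of pig fetuses, of the kind used as nuclear donors in cloning, and all of them had been serum-starved. In 2 libraries the genotype is given as BRG1-overexpressed, BRG1 being the motor subunit of BAF, a complex that remodels chromatin. The other 2 libraries, the controls, are given as WT. Each title includes pTK-642, a name left unexplained in the labels, and the sources used here do not state the promoter, the clones or the number of fetuses behind the cells. The series' design text asks what more BRG1 does to donor-cell chromatin and to cloned embryos.

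A laminin is a trimer of an alpha, a beta and a gamma chain, assembled inside the cell and then linked into a sheet on its surface. Nidogens bind the gamma chain and join that sheet to the type IV collagen network, and perlecan, a large heparan sulfate proteoglycan, attaches to both. Cells hold the sheet through integrins and dystroglycan. Fibroblasts make many of these components for basement membranes that lie beside other cells.

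Gene counts summed to 36238580 and 34684837 reads in the libraries labelled BRG1 and to 38126860 and 34486400 reads in the controls. SMARCA4, which encodes BRG1, was at 161 ± 2.82 CPM (read counts scaled by TMM to effective library size; SD, n = 2) in the libraries labelled BRG1 and 167 ± 17.1 CPM in controls (log2 fold change -0.04 ± 0.11, SE; adjusted p = 0.765 by the quasi-likelihood test of edgeR, adjusted by Benjamini-Hochberg). That value was 0.05 without control 2, 0.18 with library size as the one scaling, and -0.15 without control 1. With the trend of fold change with genomic span removed, as described below, it was -0.21 (adjusted p = 0.0823, edgeR). The endogenous gene therefore does not check the label, and directions are given for the libraries as labelled. Of 7 fibroblast markers tested 6 rose (adjusted p below 0.05, edgeR), as did 21.0% of all genes tested. COL1A1, 1 of the 6, was at 10123.6 and 10273.9 CPM in the libraries labelled BRG1, against 4389 and 5504 CPM in controls. VIM was lower in the libraries labelled BRG1, at 5686 and 5628 CPM against 6953 and 6726 CPM in controls, and did not pass (log2 fold change -0.27 ± 0.12; adjusted p = 0.0712, edgeR). The epithelial markers KRT5, KRT8 and GRHL2 had 0 reads in all 4 libraries, and 9 epithelial markers together summed to 0.280 and 1.50 CPM in the libraries labelled BRG1 and 0.743 and 0.685 CPM in controls. EPCAM, the 1 marker of these tested, fell from 14 and 20 reads in controls to 3 and 1 (log2 fold change -3.21 ± 1.02; adjusted p = 0.0162, edgeR). CDH1 went the other way, with 2 and 33 reads in the libraries labelled BRG1 and 0 reads in both controls, and was not tested. The labels do not say whether replicates were separate cultures, so errors and p-values cover only the spread between these libraries.

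All 9 genes found were higher in both libraries labelled BRG1 than in both controls. The genes together took 0.515% and 0.524% of gene reads in the libraries labelled BRG1 (95% Wilson intervals 0.513% to 0.517% and 0.521% to 0.526%), against 0.226% and 0.320% in controls 1 and 2 (0.224% to 0.227% and 0.319% to 0.322%). These intervals cover counting error alone. The log2 fold changes of the 9 genes ran from 0.39 to 4.05 with a median of 0.72, beside a median of 0.02 over the 14617 genes tested. In the fit across all genes each of the 9 passed an adjusted p of 0.05 as higher, as did 21.0% of all genes tested; 37.5% of all genes had both libraries labelled BRG1 above both controls. Because the members were chosen with this contrast known, nothing is read from these counts. Each of the 9 had at least 29 reads in every control, so none entered the test through the libraries labelled BRG1 alone.

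**Figure D1:**
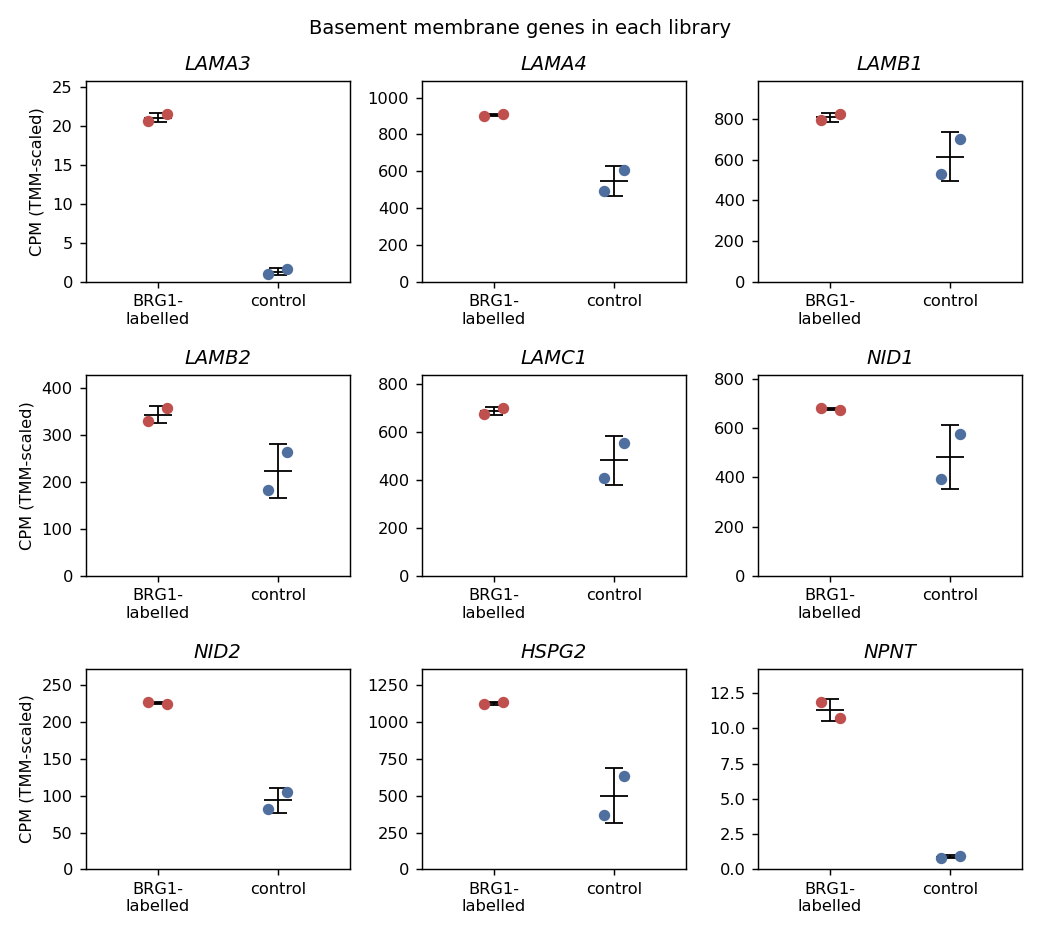
CPM (scaled by TMM) of the 9 genes in each library, with the libraries labelled BRG1 on the left and the controls on the right of each panel; points are libraries, and bars are mean ± SD (n = 2). Each axis starts at 0. The libraries labelled BRG1 lie above both controls in every panel. In most panels the controls lie further apart than the libraries labelled BRG1, from 369.7 to 631 CPM for HSPG2. For LAMA3 and NPNT the libraries labelled BRG1 lie further apart in CPM (SD 0.549 and 0.789) than the controls (SD 0.436 and 0.0969).

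Among the laminin alpha chains, LAMA3 differed most. LAMA3 (ENSSSCG00000003709; Sscrofa11.1 chromosome 6, 108548818 to 108805700) encodes the alpha chain of the laminins under epithelia, which anchor hemidesmosomes. It had 812 and 804 reads, or 20.7 and 21.5 CPM, in the libraries labelled BRG1, against 34 and 51 reads, or 0.971 and 1.59 CPM, in controls 1 and 2. The exact 95% Poisson intervals of the control counts were 23.5 to 47.5 and 38.0 to 67.1 reads. The groups lay more than an order of magnitude apart, with a log2 fold change of 4.05 ± 0.22, or 16.5-fold.

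LAMB3, the beta chain that joins LAMA3 in that epithelial laminin, had few reads in every library. It had 0 reads in both libraries labelled BRG1 and 4 and 1 reads in controls, so it was at or below a level of 3 reads in 3 of the 4 libraries and was not tested.

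LAMA4 (ENSSSCG00000004425; chromosome 1, 78071990 to 78224564) encodes the alpha chain typical of mesenchymal cells and blood vessels. It was at 899.6 and 908 CPM in the libraries labelled BRG1, against 490.4 and 607 CPM in controls 1 and 2, a log2 fold change of 0.72 ± 0.12. The controls differed from each other by more than the libraries labelled BRG1 did, and the groups did not overlap.

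The beta chains LAMB1 and LAMB2 take the same place in a trimer and are alternatives to each other. LAMB1 (ENSSSCG00000015444; chromosome 9, 107670120 to 107747242), the beta chain of most embryonic laminins, was at 792 and 821 CPM in the libraries labelled BRG1, against 529.7 and 700.3 CPM in controls 1 and 2. Its log2 fold change of 0.39 ± 0.13 was the lowest of the 9. LAMB2 (ENSSSCG00000011377; chromosome 13, 31738282 to 31750623), prominent in the basement membranes of kidney glomeruli and neuromuscular junctions, was at 330.4 and 357 CPM in the libraries labelled BRG1, against 183 and 265 CPM in controls 1 and 2 (log2 fold change 0.62 ± 0.14). In both genes control 2 lay nearer to the libraries labelled BRG1 than control 1 did. A long noncoding RNA overlaps LAMB1 in RefSeq, and the sources used here do not state whether the counting used strand, so its reads may be set aside or mixed in.

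LAMC1 (ENSSSCG00000015555; chromosome 9, 124283668 to 124405967), the gamma chain of most laminins and the chain that nidogens bind, was at 677 and 699 CPM in the libraries labelled BRG1, against 409 and 555 CPM in controls 1 and 2 (log2 fold change 0.51 ± 0.13). Since nearly every laminin needs this chain, read ratios to LAMC1 within a library show how the other genes moved beside it. Library scaling and a fixed gene length cancel in a change of such a ratio. The trend of fold change with genomic span, given below, does not cancel between genes of unlike span. LAMB2 spans 12.3 kb and LAMC1 122.3 kb. Summed over the 5 laminin chains found, the level was 2719 and 2807 CPM in the libraries labelled BRG1, against 1613 and 2128 CPM in controls.

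In raw reads the abundant laminin chains and NID1 kept close to LAMC1. LAMB1 had 1.17 and 1.18 reads per LAMC1 read in the libraries labelled BRG1, against 1.29 and 1.26 in controls, so this ratio changed 0.918-fold. LAMB2 had 0.488 and 0.511 reads per LAMC1 read in the libraries labelled BRG1 and 0.447 and 0.477 in controls, a 1.08-fold change. For LAMA4 the ratio was 1.33 and 1.30 in the libraries labelled BRG1, against 1.20 and 1.09 in controls, a 1.15-fold change. The 3 ratios did not overlap between groups, but the share of other gene pairs that do so was not computed, so nothing is read from that. All 3 moved by less than LAMC1 itself, which was 1.43-fold higher. None of these ratios is corrected for the trend with genomic span. With that trend removed, LAMB2 was 1.75-fold higher and LAMC1 1.24-fold, so LAMB2 kept less close to LAMC1 there. LAMA4, LAMB1 and NID1 were then 1.40-fold, 1.20-fold and 1.24-fold higher. Between the beta chains, reads of LAMB2 per read of LAMB1 were 0.417 and 0.435 in the libraries labelled BRG1 and 0.346 and 0.378 in controls. The ratio of NID1 to LAMC1 overlapped between groups, at 1.01 and 0.968 in the libraries labelled BRG1 and 0.958 and 1.04 in controls.

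HSPG2, NID2, NPNT and LAMA3 left that proportion. HSPG2 had 1.65 and 1.62 reads per LAMC1 read in the libraries labelled BRG1, against 0.903 and 1.14 in controls, a 1.62-fold change. NPNT had 0.0175 and 0.0154 reads per LAMC1 read in the libraries labelled BRG1 and 0.00202 and 0.00174 in controls, an 8.74-fold change. Reads of LAMA3 per read of LAMA4 changed 10.2-fold, with 0.0230 and 0.0237 in the libraries labelled BRG1 and 0.00198 and 0.00262 in controls. In each of these ratios the gap between groups exceeded the gap between the libraries of a group.

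**Figure D2:**
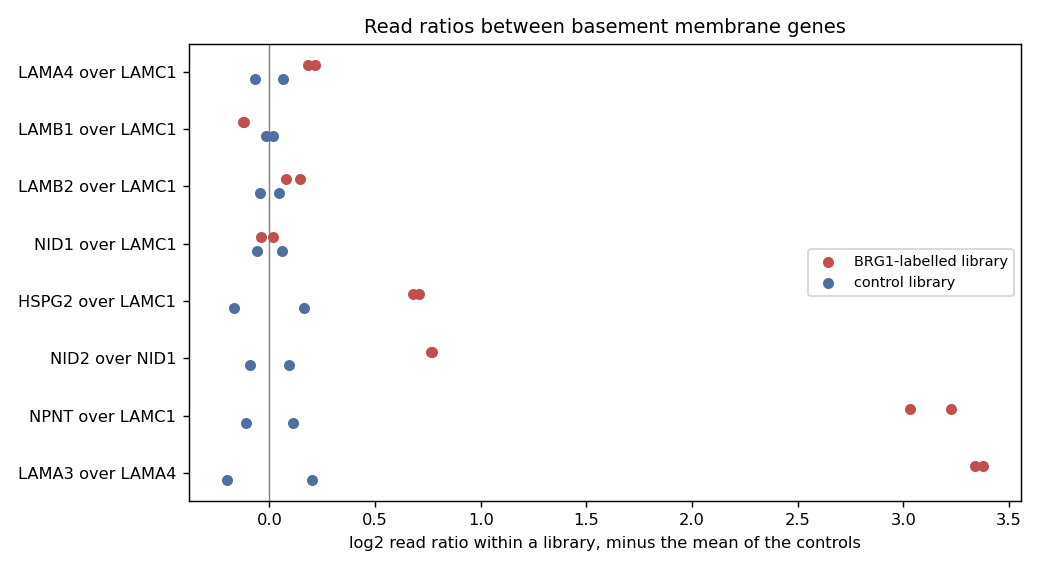
Log2 ratio of reads between pairs of genes within each library, minus the mean of that log2 ratio over the controls; red points are libraries labelled BRG1 and blue points controls. The ratios of LAMA4, LAMB1, LAMB2 and NID1 to LAMC1 stay near 0, while HSPG2 to LAMC1 and NID2 to NID1 lie at 0.69 and 0.76 and NPNT to LAMC1 and LAMA3 to LAMA4 at 3.13 and 3.36 in the libraries labelled BRG1.

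The nidogens, which bridge the laminin and type IV collagen networks, were unequal in their difference. NID1 (ENSSSCG00000026819; chromosome 14, 55239327 to 55346948) was at 682 and 677 CPM in the libraries labelled BRG1, against 392 and 576 CPM in controls 1 and 2 (log2 fold change 0.49 ± 0.15). NID2 (ENSSSCG00000005030; chromosome 1, 181699098 to 181773084) was at 227 and 225 CPM in the libraries labelled BRG1, against 81.8 and 106 CPM in controls 1 and 2 (log2 fold change 1.27 ± 0.12). Reads of NID2 per read of NID1 were 0.333 and 0.332 in the libraries labelled BRG1 and 0.209 and 0.183 in controls, so that the share of NID2 among nidogen reads was larger in both libraries labelled BRG1.

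HSPG2 (ENSSSCG00000003514; chromosome 6, 79849691 to 79958283) encodes perlecan, which binds growth factors through its heparan sulfate chains. It was at 1119.7 and 1135 CPM in the libraries labelled BRG1, against 369.7 and 631 CPM in controls 1 and 2, a log2 fold change of 1.17 ± 0.18. The controls lay 0.77 apart on the log2 scale, a gap larger than in 99.7% of the 304 genes within 2-fold of its mean level. By the same measure the share was 98.2% for LAMB2, 97.6% for NID1, 97.5% for LAMA3, 91.8% for LAMC1 and 90% for NID2. It was 86.5% for LAMB1, 74.6% for LAMA4 and 44.9% for NPNT. For HSPG2 the libraries labelled BRG1 lay 0.02 apart. In RefSeq the gene LDLRAD2 overlaps HSPG2, so some reads of the shared stretch may be set aside as ambiguous.

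NPNT (ENSSSCG00000038801; chromosome 8, 115768963 to 115861170) encodes nephronectin, which in the mouse embryo signals to kidney mesenchyme through the integrin chain ITGA8. It had 465 and 402 reads, or 11.9 and 10.7 CPM, in the libraries labelled BRG1, against 29 and 31 reads, or 0.828 and 0.966 CPM, in controls 1 and 2. The exact 95% Poisson intervals of the control counts were 19.4 to 41.6 and 21.1 to 44.0 reads. The controls agreed within those intervals and lay far below both libraries labelled BRG1, with a log2 fold change of 3.65 ± 0.25, or 12.6-fold. ITGA8 rose as well: it was at 227 and 232 CPM in the libraries labelled BRG1 and 53.3 and 71.1 CPM in controls (log2 fold change 1.88 ± 0.13; adjusted p = 2.82e-08, edgeR).

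In all 9 genes control 2 lay above control 1, by a median of 0.44 on the log2 scale, whereas 48.4% of all genes tested had control 2 above control 1, with a median of -0.01. The libraries labelled BRG1 differed by a median of 0.02 over the 9 genes. The size of each difference therefore depended on the control used. With control 1 left out the median log2 fold change of the 9 genes was 0.57, and with control 2 left out it was 0.89. HSPG2 stood at 0.83 without control 1 and 1.59 without control 2, and LAMB1 at 0.20 and 0.59. LAMB1, LAMC1 and NID1 no longer passed without library 1 labelled BRG1 or without library 2 (adjusted p from 0.0674 to 0.270, edgeR), although their log2 fold changes moved by little.

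**Figure D3:**
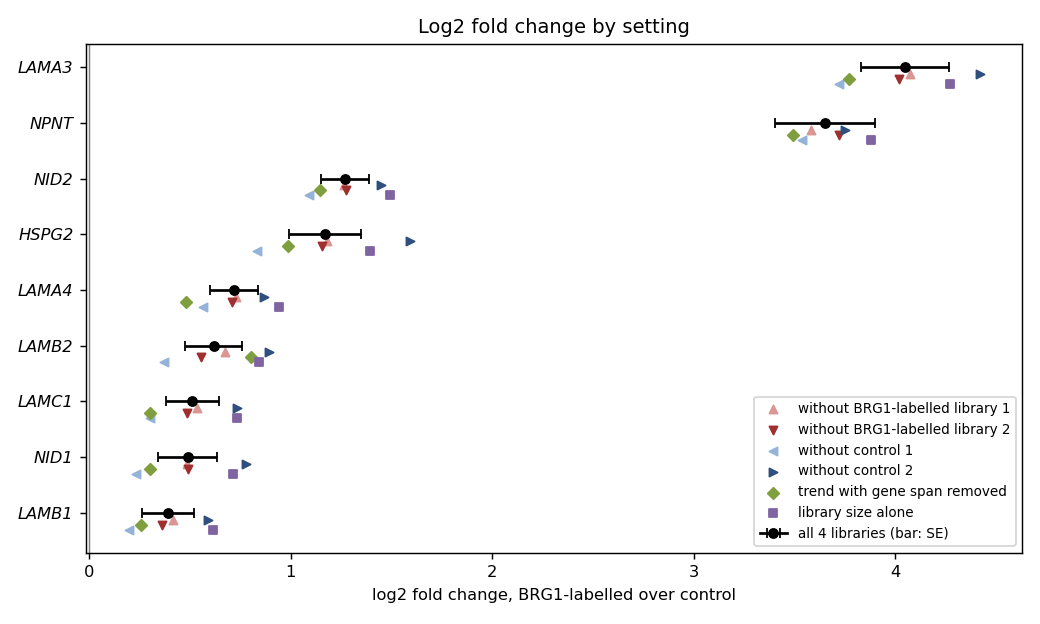
Log2 fold change of the 9 genes, libraries labelled BRG1 over controls, with all 4 libraries (black, bar: SE), with each library left out, with library size as the one scaling and with the span trend taken out. All points lie above 0; LAMB1 has the lowest, at 0.20 without control 1, and leaving out control 1 or control 2 moves HSPG2 to 0.83 or 1.59.

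Long genes were higher in the libraries labelled BRG1 across the whole table, and most of these genes are long. The log2 fold change of the genes tested had a Spearman correlation of 0.29 with genomic span across 11318 genes, which are not independent replicates. Among genes that span 91.9 to 160.2 kb the median log2 fold change was 0.21 and 35.0% of genes passed as higher; LAMA4, LAMC1, NID1, NPNT and HSPG2 fall there. LAMB2 spans 12.3 kb, and among genes of 9.34 to 14.1 kb the median was -0.20 and 13.1% passed as higher. With the trend of each library with span removed, 8 of the 9 genes had a lower log2 fold change, among them LAMA4 (0.48), LAMC1 (0.31), NID1 (0.30) and HSPG2 (0.99), while that of LAMB2 was higher (0.80). The values then ran from 0.26 to 3.77, and 8 genes passed, NID1 narrowly (adjusted p = 0.0496, edgeR) and LAMB1 not (0.26; adjusted p = 0.0563, edgeR). Reads outside annotated genes also differed, at 10.3% and 10.5% of listed reads in the libraries labelled BRG1 and 6.11% and 7.34% in controls; their part in the differences was not tested.

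**Figure D4:**
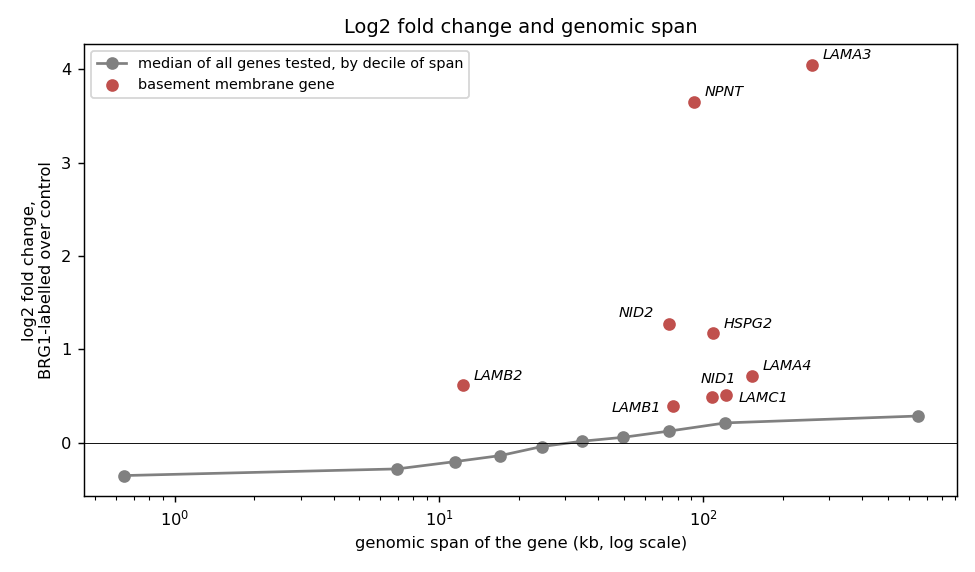
Log2 fold change of the 9 genes against the length of genome they span in RefSeq (kb, log scale), with the median of all genes tested in each decile of span in grey. The grey line runs from -0.35 to 0.29; the 9 genes lie above it, LAMB1, NID1 and LAMC1 closest to it.

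The rest of the basement membrane and its receptors was taken as 4 lists with 47 tested genes, whose choice also came after results of these data were known. Of the 47 genes 20 rose and 9 fell, beside 21.0% and 23.6% of all genes tested, and their median log2 fold change was 0.29. Leaving out library 1 labelled BRG1 gave a median of 0.25 for these genes. Scaling by library size alone gave 29 higher and 5 lower, beside 4820 higher and 2139 lower of the 14617 genes tested. That scaling moved the median of all genes to 0.24.

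Of the other laminin chains 2 of 5 could be tested, and LAMC3, a gamma chain, rose (log2 fold change 0.86 ± 0.25; adjusted p = 0.0104, edgeR), though not without library 1 labelled BRG1 (adjusted p = 0.177). LAMA5, the most widespread alpha chain of adult basement membranes, was at 99.1 and 111 CPM in the libraries labelled BRG1 and 82.7 and 117 CPM in controls, ranges that overlap. Its log2 fold change of 0.08 ± 0.14 (adjusted p = 0.681, edgeR) turned to -0.16 without control 1 and was 0.33 without control 2. The interval of LAMA5 reached from -0.21 to 0.37 on the log2 scale. LAMA1, the chain of the earliest embryonic basement membrane, had 2 and 6 reads in the libraries labelled BRG1 and 14 and 4 reads in controls.

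Of 18 tested genes for type IV collagens and other components 9 rose and 4 fell. The rises with the smallest adjusted p were in SMOC2, a calcium-binding matrix protein (log2 fold change 2.76 ± 0.18), HMCN1, a hemicentin (2.41 ± 0.17), EGFLAM, which binds dystroglycan in the mouse retina (2.35 ± 0.15), and FBLN2, a fibulin that binds nidogen (2.02 ± 0.13), with adjusted p from 1.38e-08 to 4.80e-08 in edgeR. Agrin and perlecan, both heparan sulfate proteoglycans of basement membranes, moved oppositely: AGRN was at 59.2 and 57.7 CPM in the libraries labelled BRG1, against 107 and 152 CPM in controls (log2 fold change -1.15 ± 0.14; adjusted p = 8.80e-06, edgeR). The other falls were in SMOC1 (-1.75 ± 0.41), a relative of SMOC2, in TINAGL1 (-0.61 ± 0.15), a secreted laminin-binding protein, and in COL4A1. TINAGL1 did not pass with library size as the one scaling, without library 1 labelled BRG1 or with the span trend removed (adjusted p from 0.0506 to 0.0720, edgeR).

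The type IV collagen chains, to which nidogens tie the laminins, had log2 fold changes of both signs. COL4A1 was at 229 and 222 CPM in the libraries labelled BRG1, against 248 and 307 CPM in controls (log2 fold change -0.30 ± 0.11; adjusted p = 0.0437, edgeR), but it did not pass with scaling by library size alone (-0.08; adjusted p = 0.614), with a filter of 1 CPM, or without either library labelled BRG1. COL4A2, the other chain of the common trimer and its neighbour on chromosome 11, was at 352 and 339 CPM in the libraries labelled BRG1 and 264 and 334 CPM in controls (0.21 ± 0.12; adjusted p = 0.171, edgeR). It passed as higher with library size alone (0.43). Its log2 fold change was 0.37 without control 2 and -0.04 with the span trend removed. COL4A5, a chain of kidney and smooth muscle basement membranes, rose to 20.8 and 18.2 CPM in the libraries labelled BRG1, against 4.91 and 7.82 CPM in controls (1.62 ± 0.20; adjusted p = 1.08e-05, edgeR).

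**Figure D5:**
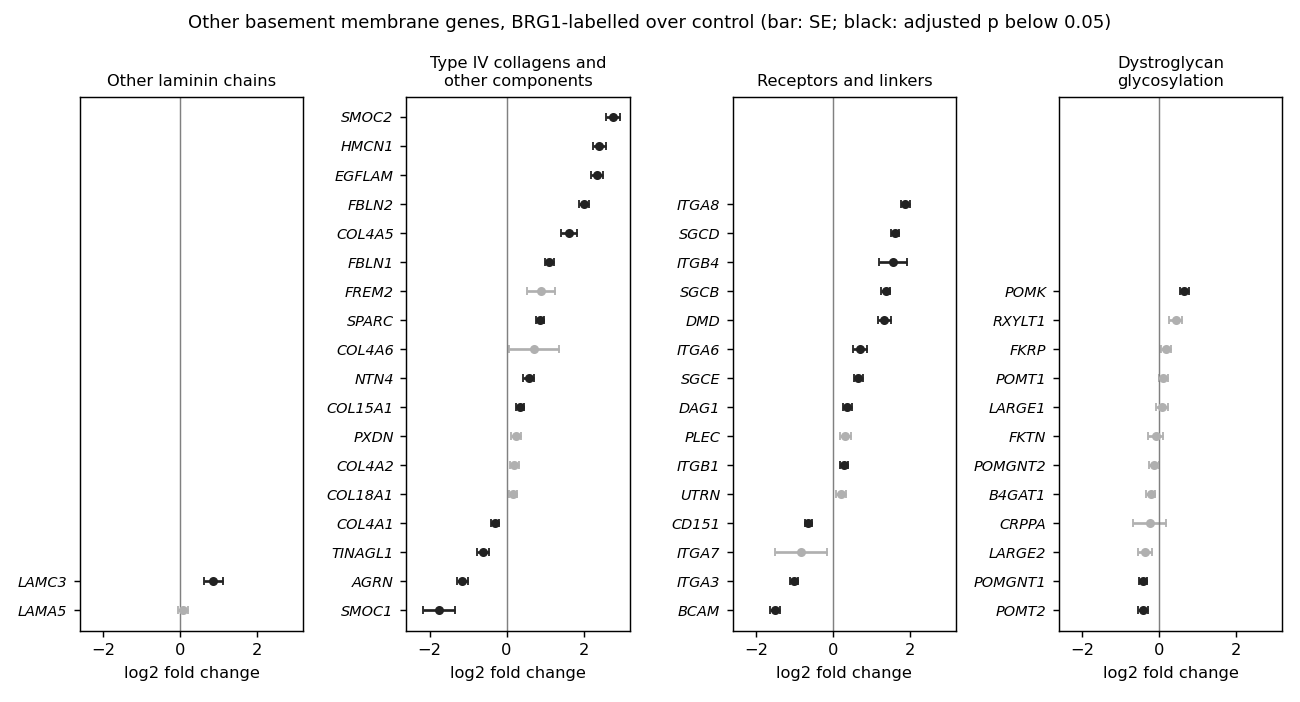
Log2 fold change (libraries labelled BRG1 over controls, bar: SE) of the 47 tested genes in 4 lists; black points passed an adjusted p of 0.05 and grey points did not. SMOC2 (2.76) and SMOC1 (-1.75) mark the ends, and 9 of 12 genes of dystroglycan glycosylation did not pass.

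Of 15 receptors and linkers 9 rose and 3 fell. Beside ITGA8, the rises with the smallest adjusted p were in SGCD (log2 fold change 1.62 ± 0.11) and SGCB (1.37 ± 0.12), sarcoglycans that sit beside dystroglycan in the dystrophin complex. DAG1, dystroglycan itself, was at 367 and 372 CPM in the libraries labelled BRG1 and 255 and 314 CPM in controls (0.38 ± 0.11; adjusted p = 0.0146, edgeR), and did not pass without either library labelled BRG1. Both chains of the hemidesmosome integrin that binds the LAMA3 laminin rose: ITGB4 was at 3.16 and 3.05 CPM in the libraries labelled BRG1 and 0.943 and 1.15 CPM in controls (1.57 ± 0.37; adjusted p = 0.00304, edgeR). ITGA6, its alpha chain, was at 11.7 and 14.5 CPM in the libraries labelled BRG1 and 7.74 and 8.28 CPM in controls (0.70 ± 0.17; adjusted p = 0.00397, edgeR), but did not pass without library 2 labelled BRG1 (adjusted p = 0.0908). ITGB1, the beta chain shared by the other laminin integrins, stood at 0.29 ± 0.11 (adjusted p = 0.0394, edgeR) and lost the call without either library labelled BRG1, with no filter on low counts (adjusted p = 0.0549) and with the span trend removed (adjusted p = 0.0515).

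The receptors that fell were BCAM, ITGA3 and CD151. BCAM, a receptor for LAMA5, was at 13.1 and 14.0 CPM in the libraries labelled BRG1, against 38.5 and 38.9 CPM in controls (log2 fold change -1.51 ± 0.13; adjusted p = 3.12e-07, edgeR). ITGA3, the alpha chain of the main laminin integrin of keratinocytes, was at 30.0 and 34.4 CPM in the libraries labelled BRG1, against 63.6 and 66.3 CPM in controls (-1.01 ± 0.11; adjusted p = 4.70e-06, edgeR). CD151, a tetraspanin that binds laminin integrins, fell by 0.63 on the log2 scale. ITGA3 and ITGA6, the alternative alpha chains of laminin integrins, thus differed in sign.

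Of 12 enzymes that build the laminin-binding glycan on dystroglycan 1 rose and 2 fell, beside the 21.0% and 23.6% of all genes, with a median of -0.11. POMK, a kinase acting on that glycan, rose (log2 fold change 0.65 ± 0.11; adjusted p = 2.94e-04, edgeR). POMT2, which adds the first mannose, and POMGNT1, another enzyme of the list, were at -0.42 ± 0.14 and -0.42 ± 0.11, and neither passed with library size as the one scaling or without library 1 labelled BRG1. POMT2 also lost the call without library 2 labelled BRG1 (adjusted p = 0.200, edgeR), and POMGNT1 with the span trend removed (-0.18; adjusted p = 0.157, edgeR). RXYLT1, a xylosyltransferase of the same glycan, was at 0.42 ± 0.18 (adjusted p = 0.0671, edgeR). It passed with no filter on low counts (0.39) and with library size as the one scaling (0.65). Without control 1 it stood at 0.66, and without library 2 labelled BRG1 at 0.62.

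Cells other than fibroblasts also make these glycoproteins, and in bulk RNA a change in cell numbers and a change in RNA per cell cannot be told apart. Of the 9 endothelial markers listed 5 were tested and 2 rose, ERG (65.0 and 63.8 CPM in the libraries labelled BRG1, 18.5 and 23.6 CPM in controls) and PECAM1 (6.30 and 7.05 CPM in the libraries labelled BRG1, 2.49 and 3.24 CPM in controls). ERG made up most of the summed level of the 9, which was 73.6 and 73.1 CPM in the libraries labelled BRG1 and 24.9 and 28.8 CPM in controls. VWF went the other way, at 0.714 and 0.721 CPM in the libraries labelled BRG1 and 2.34 and 1.15 CPM in controls, and did not pass (log2 fold change -1.28 ± 0.52; adjusted p = 0.0561, edgeR). EMCN had 0 reads in both libraries labelled BRG1 and 6 and 2 reads in controls. TIE1 (log2 fold change 1.51 ± 1.02, adjusted p = 0.237, edgeR) and CLDN5 (0.32 ± 0.51, adjusted p = 0.642, edgeR) did not pass either. The defining endothelial markers CDH5, KDR and TEK had 0 reads in both libraries labelled BRG1. In controls 1 and 2 CDH5 had 1 and 0 reads, KDR 2 and 0 reads, and TEK 0 and 0 reads. Of 8 smooth muscle and pericyte markers 7 were tested and 3 rose, with a summed level of 94.3 and 92.5 CPM in the libraries labelled BRG1 and 47.9 and 63.2 CPM in controls, and the rises were in ABCC9 (log2 fold change 2.62 ± 0.25), NOTCH3 (1.22 ± 0.21) and CSPG4 (0.62 ± 0.13). ABCC9, a potassium channel subunit of pericytes, was at 9.51 and 8.12 CPM in the libraries labelled BRG1, against 1.49 and 1.37 CPM in controls. MYH11, the smooth muscle myosin, was at 1.02 and 1.63 CPM in the libraries labelled BRG1 and 0.971 and 1.43 CPM in controls. Of 7 Schwann cell and melanocyte markers found 2 were tested, 1 rose and 1 fell, with MITF making up nearly all of their summed 17.3 and 16.6 CPM in the libraries labelled BRG1 and 8.74 and 9.16 CPM in controls; SOX10 had 2 and 1 reads in the libraries labelled BRG1 and 4 and 0 reads in controls. Leukocyte markers summed to 3.16 and 4.41 CPM in the libraries labelled BRG1 and 1.60 and 3.02 CPM in controls, with PTPRC at 0 reads. Adipocyte markers (ADIPOQ at 0 reads) and skeletal muscle markers (MYOD1 at 0 reads) summed to no more than 1.09 CPM in any library. The part of the markers that rose in the differences of the 9 genes was not tested.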

How the data were processed

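RNA-seq of 4 libraries was used, 2 labelled BRG1 and 2 controls, grouped by their titles. The deposited files hold whole-number read counts per Ensembl gene, not normalized. The submitters' processing notes name the build Sscrofa11.1 and the tools STAR, SAMtools, FastQC, Cufflinks, edgeR and DESeq2, without their roles; the read counter, strand setting and annotation are not given in these sources. Rows that name no gene entered neither library sizes nor tests: reads outside genes made up 6.11% to 10.5%, ambiguous reads 1.90% to 2.33% and reads with several alignments 1.42% to 1.80%.

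Genes were kept by filterByExpr (minimum count 10, total 15), scaled by TMM and tested with edgeR 4.0.16 (R 4.3.3; quasi-likelihood, prior count 0.125), with Benjamini-Hochberg adjustment over 14617 genes and a threshold of 0.05. Standard errors come from the log2 fold change without a prior count and the F statistic. Coordinates and spans were matched by symbol in the RefSeq annotation of Sscrofa11.1; spans were found for 77.4% of genes tested, so the fit with the span trend removed covers those alone. The method was tested on simulated data.

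The members and lists were chosen with earlier results of these data known; 2 genes of the lists are not reported here and were left out of the lists' counts. Named genes are the 9 members, SMARCA4, up to 4 genes per list by smallest adjusted p, and the genes that make up a small count; COL4A5, DAG1, ITGA6, ITGB1, ITGB4, LAMA1, LAMB3 and the markers were chosen after their values were seen. Alternatives were other scalings and filters, DESeq2 1.42.0, limma-voom (limma 3.58.1), a replicate block, each library left out, and a fit without the trend of each library with gene span.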

Additional observations from a re-analysis of the deposited data

How the results depend on the processing

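All 9 members kept a log2 fold change above 0 in each of the 12 alternatives, and 14 of their 108 values moved by more than the SD between replicates; the cause was not tested. The members past the threshold numbered 6 to 9 with a library left out and 8 with the span trend removed. Over all genes, 3068 were higher and 3444 lower; library size alone gave 4820 and 2139, and leaving out a library gave 1908 to 3673 higher and 2177 to 4321 lower. Of the other basement membrane and receptor genes 9 fell, 5 with library size alone and 5 to 11 with a library left out. LAMA5 (0.08) ranged from -0.16 without control 1 to 0.33 without control 2 and was -0.01 without library 2 labelled BRG1. COL4A2 (0.21) stood at -0.040 with the span trend removed. SMARCA4 (-0.04) ranged from -0.15 to 0.048 with a library left out and was 0.18 with library size alone. With the span trend removed SMARCA4 was lowest, at -0.21. Libraries with the same replicate number in their titles shared little deviation from their group means (correlation of deviations -0.04). That value cannot show whether they were prepared together. With the replicate block 9 members passed, and the other genes numbered 22 higher and 9 lower. In that fit ITGB1 did not pass (adjusted p = 0.0861, edgeR) while RXYLT1 did (adjusted p = 0.0166, edgeR). Levels per gene length were not computed because no coding lengths were used here, so levels are not compared between genes. Control counts of 29 to 51 reads limit the precision of the fold changes of LAMA3 and NPNT. With a library left out, the lone library of a group is assumed to vary like the others. The groups did not vary alike: chi-square per degree of freedom was 38.9 between the controls and 5.34 between the libraries labelled BRG1. Calls gained or lost with a library left out therefore depend on which group gives the spread.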
